A study of Caenorhabditis elegans with 4 samples.

Results

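The PUF genes of Caenorhabditis elegans, apart from fbf-1 and fbf-2, were followed in adult males set against a wild-type reference. The members were the 9 gene symbols puf-3, puf-4, puf-5, puf-6, puf-7, puf-8, puf-9, puf-11 and puf-12, found by name in the annotation of the array's probes and required to have a value on at least 3 of 4 arrays. Of these 9 genes, 7 had 1 probe each. The other two, puf-3 and puf-11, were listed together on 1 probe, whose value belongs to either or both and is given here as puf-3/puf-11. The family therefore enters as 8 features of 19214 tested, and all 8 had values on 4 arrays.

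The males were him-5 mutants. The him-5 gene is needed for the X chromosome to segregate in meiosis, and its loss yields many male offspring. Each of 4 arrays of 2 colours held messenger RNA of 1 preparation of these adult males (preparations 1 to 4) in one channel and RNA of wild-type worms of mixed stages in the other, per the labels. Sex, genotype and stage thus differ together between the 2 sides and cannot be told apart. Nothing in the labels tells whether each preparation was a culture of its own. A p-value here reflects the variation among the 4 preparations, part or all of which may be technical. Values are log2 ratios of males over the reference. The labels make that direction likely by naming the males first and by placing them in the second channel. No dye is named, so it is not settled. Of 20 measured sperm markers 20 were called higher in males, beside 22.1% of all features tested. Of 16 oocyte and eggshell markers 14 were called lower and 1 higher, beside 23.6% lower and 22.1% higher over all features. Both marker lists were chosen with earlier results of these data known. Preparation 2 stood apart: over all probes its ratios correlated with the other arrays at r = 0.70 to 0.78, against r = 0.80 to 0.89 among preparations 1, 3 and 4, and its array weight, which limma sets by how closely an array follows the others, was 0.31, against 0.63 to 4.73. Turned round, the ratios would give males fewer sperm transcripts and more oocyte transcripts than the reference.

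PUF proteins bind short elements in the 3′ untranslated regions of messenger RNAs and repress or store those messages, in part by recruiting enzymes that shorten the poly(A) tail. In the worm most of them act in the germ line, where they keep stem cells dividing, set the choice between sperm and oocyte, and hold maternal messages silent in growing oocytes. The puf-5, puf-6 and puf-7 genes act together in oocyte formation, puf-3 and puf-11 act in the germ line and in oogenesis beside the fbf genes, puf-8 acts in male and hermaphrodite germ cells, and puf-9 acts in somatic tissues.

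The family did not move as one. In males the transcripts of puf-5 and puf-3/puf-11 were lowest, at 2.76-fold and 2.59-fold below the reference, and puf-6 was 1.54-fold below it. The transcripts of puf-4 and puf-12 were 1.60-fold and 1.55-fold above it. The others, puf-7, puf-8 and puf-9, had negative means that did not pass the test. Thus 5 of 8 features were called (2 higher and 3 lower) by limma at a Benjamini-Hochberg adjusted p under 0.05 over all features, beside 45.7% of all features tested (22.1% higher and 23.6% lower). Where so large a share of the array is called, a count of 5 of 8 does not set the family apart. The median of the 8 mean log2 ratios was -0.56, against 0.05 over all features. These are whole animals, and fewer cells of a type cannot be told apart from less RNA per cell.

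Among the genes of oogenesis, puf-5, whose protein represses maternal messages in late oocytes, had log2 ratios of -2.01, -0.26, -1.35 and -2.24 on preparations 1 to 4. All 4 lay below 0, with preparations 1 and 4 lowest and preparation 2 close to the reference. The mean was -1.46 ± 0.89 (SD, n = 4; 95% interval from -2.22 to -0.71; limma adjusted p = 0.00915). This mean was at the 4.57 percentile of all features, and its spread between arrays was at the 93.9 percentile of all features with 4 values. Without preparation 2, the array that stood apart, the mean was -1.86, and without preparation 4 it was -1.21.

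The probe for puf-3/puf-11 followed the same course. Its log2 ratios were -1.93, -0.52, -1.13 and -1.92 on preparations 1 to 4. Again preparations 1 and 4 were lowest and preparation 2 nearest to 0. The mean was -1.37 ± 0.68 (SD, n = 4; limma adjusted p = 0.00551), and -1.66 without preparation 2. On each array it lay within 0.07 to 0.32 of puf-5, above it on 3 arrays and below it on preparation 2. Over the 4 arrays, puf-3/puf-11 was the 2nd closest to puf-5 of 14658 genes ranked by Euclidean distance, behind cyb-3, a B-type cyclin gene (mean -1.58). In the other direction, puf-5 was the 4th closest to puf-3/puf-11.

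The genes puf-6 and puf-7, whose proteins are close in sequence and act with puf-5, had shallower ratios. For puf-6 they were -0.94, -0.23, -0.38 and -0.92 on preparations 1 to 4, with a mean of -0.62 ± 0.37 (SD, n = 4; limma adjusted p = 0.0354). For puf-7 they were -0.92, -0.26, -0.15 and -1.03, with a mean of -0.59 ± 0.45 (SD, n = 4; limma adjusted p = 0.0545). Both genes were below 0 on every array and lowest on preparations 1 and 4. Within each array they differed by 0.02 to 0.23, and the mean difference of puf-7 minus puf-6 was 0.03 ± 0.15 (SD, n = 4). That puf-6 was called and puf-7 was not is therefore no sign of a difference between them. Whether each probe also reads the other gene's messenger RNA was not tested. The call of puf-6 was lost without preparation 1 (-0.51, adjusted p = 0.139), preparation 3 (-0.70, adjusted p = 0.0871) or preparation 4 (-0.52, adjusted p = 0.109), all by limma. On the other side, puf-7 was called with arrays centred on their medians (-0.62, limma adjusted p = 0.0487) and with the median of ribosomal protein genes or of chemoreceptor genes set to 0 on each array, called ribosomal protein centring (-1.0, limma adjusted p = 0.0343) and chemoreceptor centring (-0.92, limma adjusted p = 0.0181). The mean of puf-6 was -1.03 and -0.95 under these 2 centrings.

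**Figure D1:**
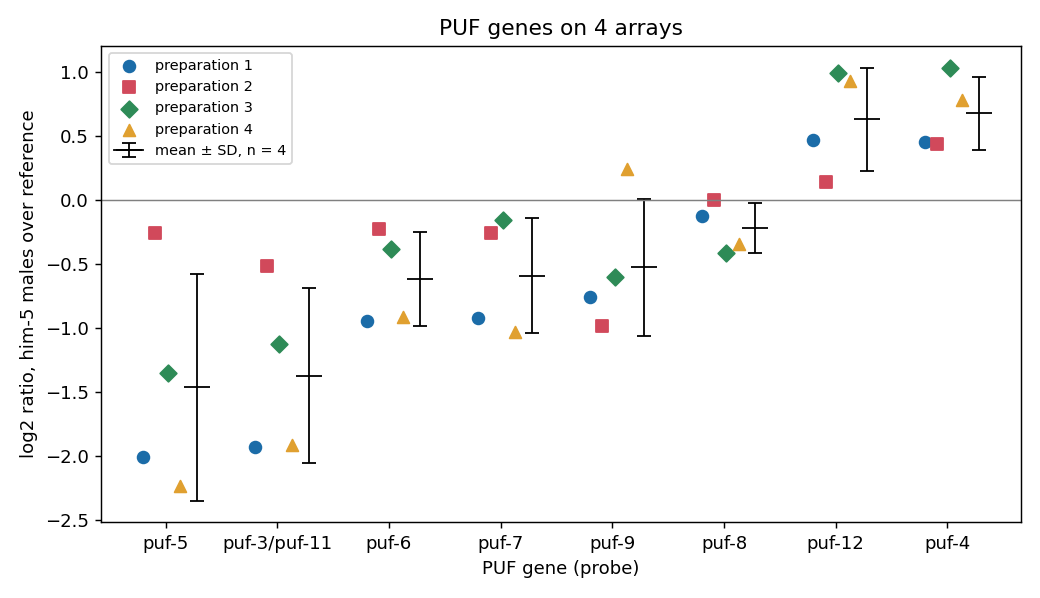
Log2 ratio of him-5 males over the reference (vertical axis) for each of the 8 PUF features (horizontal axis, ordered by mean); symbols are the 4 preparations, and the bar beside them is the mean ± SD (n = 4). puf-5 and puf-3/puf-11 lie lowest, with preparation 2 nearest to 0, and puf-12 and puf-4 lie above 0 on all 4 arrays.

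Oocyte and eggshell transcripts were lower in males too, and their ratios were set beside those of these genes on each array. The median of 16 such markers was -1.69, -0.98, -1.03 and -1.66 on preparations 1 to 4, so that preparations 1 and 4 were again the lowest. Relative to that median, puf-6 lay 0.74, 0.75, 0.64 and 0.74 higher on the 4 arrays, a mean of 0.72 ± 0.05 (SD, n = 4). The offset of puf-7 was 0.75 ± 0.10 (SD, n = 4). Both genes thus kept a nearly fixed distance above the median of the oocyte markers, a pattern noticed after the values were seen. Single markers such as cpg-2 lay above both genes on every array. In contrast, puf-5 lay below the marker median on preparations 1, 3 and 4 (offsets of -0.32, -0.32 and -0.58) and above it on preparation 2 (0.72). For puf-3/puf-11 the offsets were -0.25, 0.47, -0.10 and -0.26. On average neither puf-5 nor puf-3/puf-11 differed from the marker median by more than the spread of its offsets (-0.12 ± 0.58 for puf-5 and -0.03 ± 0.34 for puf-3/puf-11, SD, n = 4). The part of oocyte number in these values was not tested.

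**Figure D2:**
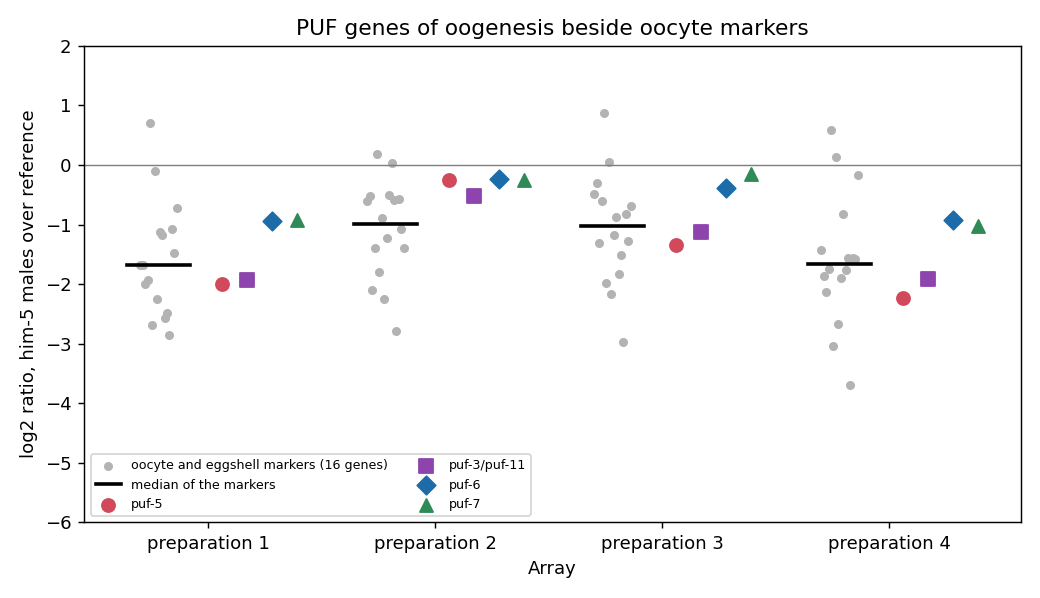
Log2 ratio of him-5 males over the reference (vertical axis) on each array (horizontal axis) for 16 oocyte and eggshell markers (grey, with their median as a black line) and for puf-5, puf-3/puf-11, puf-6 and puf-7 (coloured symbols). On all 4 arrays puf-6 and puf-7 lie above the marker median, while puf-5 and puf-3/puf-11 lie below it on preparations 1, 3 and 4 and above it on preparation 2.

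The gene puf-8 acts in germ cells of both kinds; in the male germ line its protein keeps spermatocytes from returning to mitosis, and in hermaphrodites it takes part in the switch from sperm to oocytes. Its log2 ratios were -0.12, 0.0043, -0.41 and -0.34 on preparations 1 to 4. As deposited, none was farther from 0 than 0.41. The mean was -0.22 ± 0.19 (SD, n = 4; 95% interval from -0.61 to 0.18; limma adjusted p = 0.313), and its spread was at the 12.9 percentile. The interval leaves room for a change of either sign. General germ cell markers, set beside it, had a median of -0.19, and 2 of 17 were higher and 3 lower. The share called was 29.4%, beside 45.7% over all features. The higher ones were pgl-3 and hop-1, a presenilin gene whose specificity for germ cells was not checked. On preparation 3 hop-1 was far above its other values (3.84). Both calls were lost with ribosomal protein or chemoreceptor centring and with median centring. That of hop-1 was also lost with scale normalization or robust moderation, and without preparation 2 or 3. That of pgl-3 was also lost with a covariate for array date, and without preparation 1, 3 or 4. Of the lower ones, mes-3, mes-4 and mes-6, the call of mes-3 was lost without preparation 1. With array weights, which give preparation 3 the most weight, puf-8 was called lower (-0.34, limma adjusted p = 0.032). Its mean was -0.63 under ribosomal protein centring (limma adjusted p = 0.115) and -0.55 under chemoreceptor centring (limma adjusted p = 0.054).

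The somatic gene puf-9, whose protein represses the timing gene hbl-1 during larval development, had log2 ratios of -0.76, -0.99, -0.60 and 0.24 on preparations 1 to 4. Of the 8 features it alone had preparation 4 on the other side of 0 from the rest. The mean was -0.53 ± 0.54 (SD, n = 4; limma adjusted p = 0.0998). Without preparation 4 the mean was -0.78 and the gene was called lower (limma adjusted p = 0.0221), as it was with array weights (-0.57, limma adjusted p = 0.0095). With ribosomal protein or chemoreceptor centring its mean was -0.94 or -0.86, not called. It is the only X-linked member in the gene table used here. Males have a single X chromosome, whose genes are adjusted in hermaphrodites by dosage compensation. Over 2273 X-linked genes the median of the mean log2 ratios was -0.11, with 318 (13.99%) called higher and 691 (30.40%) lower. Over 12786 autosomal genes it was 0.02, with 2950 (23.07%) called higher and 3269 (25.57%) lower. On preparation 2, where puf-9 was lowest, the X-linked median was 0.06 and the autosomal median -0.02. The part of X linkage in the value of puf-9 was not tested. Somatic markers of muscle, hypodermis and intestine had a median that was lowest on preparation 2 (-0.04) and highest on preparation 4 (1.14), the same arrays on which puf-9 was lowest and highest. That was not particular to somatic markers: the median of general germ cell markers was also lowest on preparation 2 (-0.81) and highest on preparation 4 (0.26). The same held for the heterochronic, nucleolar, and deadenylation and decapping lists described below, but not for sperm or oocyte markers. The part of tissue makeup in the value of puf-9 was not tested.

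The 2 genes with positive ratios were puf-12 and puf-4. Relatives of puf-12 in yeast and human cells (Puf6 and PUM3) act in the nucleolus in the assembly of ribosomes. Its log2 ratios were 0.47, 0.14, 0.99 and 0.93 on preparations 1 to 4, above 0 on each, and higher on preparations 3 and 4. The mean was 0.63 ± 0.40 (SD, n = 4; limma adjusted p = 0.0372). For puf-4 the log2 ratios were 0.46, 0.44, 1.04 and 0.78, with a mean of 0.68 ± 0.29 (SD, n = 4; limma adjusted p = 0.0195). Again all were positive, and preparations 3 and 4 were the higher ones. The gene table used here (assembly WBcel235) lists puf-4 as a pseudogene. Which transcript its probe reads was not tested.

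Both calls depend on how the arrays are scaled. Centring arrays on ribosomal protein genes moved the median of all features by -0.41 on the log2 scale, and centring on chemoreceptor genes by -0.33. The means stayed positive but were no longer called by limma: puf-4 at 0.27 (adjusted p = 0.567) and 0.35 (adjusted p = 0.285), puf-12 at 0.22 (adjusted p = 0.667) and 0.30 (adjusted p = 0.418). The call of puf-12 was also lost by limma without preparation 1 (0.69, adjusted p = 0.0793), 3 (0.51, adjusted p = 0.181) or 4 (0.53, adjusted p = 0.112), and that of puf-4 without preparation 3 (0.56, adjusted p = 0.125) or 4 (0.64, adjusted p = 0.056).

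From lowest to highest mean the order was puf-5, puf-3/puf-11, puf-6, puf-7, puf-9, puf-8, puf-12 and puf-4. Of the 7 pairs of neighbours in this order, 2 had a mean difference larger than the spread of that difference between arrays. The difference of puf-6 minus puf-3/puf-11 was 0.75 ± 0.33, and that of puf-12 minus puf-8 was 0.85 ± 0.60 (SD, n = 4), each with the same sign on 4 of 4 arrays. The other 5 pairs of neighbours did not differ beyond their spread. Of all 28 pairs of members, 17 kept 1 order on all 4 arrays. The range between the lowest and the highest member was 2.47, 1.42, 2.39 and 3.17 on preparations 1 to 4, smallest on preparation 2. The marker medians that were farthest from 0 were also nearest to it on preparation 2, for sperm markers at 1.63, against 2.42 to 2.80 on the other arrays, and for oocyte and eggshell markers at -0.98, against -1.69 to -1.03. Over all features with 4 values, preparation 2 had the value nearest to 0 for 22.5%. The part of that preparation in the members' range was not tested.

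The labels date the arrays into an earlier pair (preparations 1 and 2) and a later pair (preparations 3 and 4), each of males only. The means of the later and the earlier pair were 0.96 and 0.30 for puf-12, 0.91 and 0.45 for puf-4, and -0.18 and -0.87 for puf-9. They were -1.79 and -1.13 for puf-5 and -1.52 and -1.22 for puf-3/puf-11. For puf-6 they were -0.65 and -0.59, for puf-7 both were -0.59, and for puf-8 they were -0.38 and -0.06. No mean changed sign between the pairs. The difference between the pairs was not tested.

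The one fbf gene measured, fbf-2, keeps germline stem cells dividing and takes part in the switch from sperm to oocytes. It was not called, at 0.33, 0.12, 0.35 and 0.27 on preparations 1 to 4 (limma adjusted p = 0.204). These ratios lay above puf-8 and below puf-4 on each array. With arrays centred on ribosomal protein or chemoreceptor genes its mean was -0.14 or -0.06, and with array weights it was called higher (0.33, limma adjusted p = 0.0276).

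Of 17 listed genes whose proteins bind or assist PUF proteins, 14 were tested, 2 were higher and 2 lower, with a median of -0.26. The share called was 28.6%, beside 45.7% over all features. The higher ones were cpb-2 and cpb-1, both of the CPEB family of RNA-binding proteins. The log2 ratios of cpb-2 were 2.73, 1.37, 2.60 and 3.29 (mean 2.50 ± 0.81, SD, n = 4; limma adjusted p = 0.000689). Those of cpb-1, which binds FBF and is needed for spermatogenesis, were 1.04, 0.12, 1.07 and 1.12 (mean 0.84 ± 0.48, SD, n = 4; limma adjusted p = 0.0176), a call lost with ribosomal protein centring (0.43, adjusted p = 0.42) or chemoreceptor centring (0.51, adjusted p = 0.234) and without preparation 1, 3 or 4. The lower ones were nos-2, a Nanos gene whose message is maternal, at -1.39 ± 0.73, and cpb-3, another CPEB gene, at -1.04 ± 0.23 (SD, n = 4). The Nanos gene nos-3, whose protein binds FBF, stood at -0.36 ± 0.70, and gld-3, an FBF-binding cofactor of the poly(A) polymerase GLD-2, at -0.79 ± 0.74 (SD, n = 4), neither called. By limma gld-3 was called lower under 6 alternatives: the dated pair as block (adjusted p = 0.0374) or covariate (adjusted p = 0.0257), median centring (adjusted p = 0.0485), quantile normalization (adjusted p = 0.0375), array weights (adjusted p = 0.00545) and without preparation 4 (-1.11, adjusted p = 0.0119). The lst-1 and sygl-1 genes, stem cell partners of FBF, stood at -0.27 and 0.11 and were not called.

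Of 26 listed gene names of poly(A) shortening, decapping and repression, 20 were tested, 10 were lower and none was higher, with a median of -0.56. The listed names ntl-2 and tag-153, neither matched to a probe, are synonyms. The share called was 50%, near the 45.7% over all features. The translational repressor gene ifet-1 stood at -1.50 ± 0.51, the decapping activator gene edc-3 at -1.26 ± 0.33, and the deadenylase complex genes panl-3 and ccr-4 at -1.02 ± 0.51 and -0.91 ± 0.50 (SD, n = 4). Without preparation 1 the call of ccr-4 was lost (-0.88, limma adjusted p = 0.0512). The helicase gene cgh-1 was called lower at -0.73 ± 0.45 (SD, n = 4). That call ended without preparation 1 (-0.51, limma adjusted p = 0.108), 2 (-0.76, limma adjusted p = 0.057) or 3 (-0.80, limma adjusted p = 0.0703) and with scale normalization (-0.80, limma adjusted p = 0.0555). The deadenylase gene ccf-1, the core catalytic subunit that PUF proteins recruit, was at 0.10 ± 0.18 (SD, n = 4) and was not called.

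Messages that PUF proteins are known to regulate were mostly lower. Of 16 listed, 14 were tested, 9 were lower and 1 was higher, with a median of -0.85, and 71.4% were called, beside 45.7% over all features. The puf-9 target hbl-1 stood at -1.84, -1.33, -1.62 and -2.11 on preparations 1 to 4 (mean -1.73 ± 0.33, SD, n = 4; limma adjusted p = 0.000467). Its ratios were below those of puf-9 on every array. The puf-8 target pal-1, a caudal homeobox gene, stood at -1.44 ± 0.38, and glp-1, a Notch receptor gene that puf-5, puf-6 and puf-7 repress in oocytes, at -0.85 ± 0.06 (SD, n = 4). The fbf targets fem-3, a sex-determining gene, and lip-1, a phosphatase gene, stood at -1.17 ± 0.37 and -1.05 ± 0.27 (SD, n = 4). Also in this list, gld-1 was called lower at -0.95 ± 0.63 (SD, n = 4; limma adjusted p = 0.0199). Its call was lost by limma without preparation 1 (-0.72, adjusted p = 0.078) or 2 (-0.82, adjusted p = 0.0736). The higher member was fog-3, which directs germ cells towards sperm, with a mean of 2.15 ± 0.71 (SD, n = 4).

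Genes listed for other RNA-binding proteins of germ line and early embryo were mostly lower. Of 19 listed, 18 were tested, 13 were lower and none was higher, with a median of -1.06 and 72.2% called, beside 45.7% over all features. These values include mei-1, called lower at -0.71, which encodes a katanin subunit and not an RNA-binding protein. The zinc finger genes oma-2, pos-1 and mex-6 stood at -2.29 ± 0.67, -1.96 ± 0.69 and -1.77 ± 0.31, and spn-4 at -1.94 ± 0.43 (SD, n = 4). The order of the arrays differed within the list: preparation 2 was nearest to 0 for pos-1 and oma-2, and lowest for mex-5 (-1.58). The list's median was -1.22 on preparation 2 and -0.76 on preparation 3. The gene lin-41 is in this list and among the timing genes.

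Heterochronic genes time larval development, and their list holds the puf-9 target hbl-1. Of 17 names listed, 15 were tested, 9 were lower and none was higher, with a median of -0.84. The listed name lin-57, not matched to a probe, is a synonym of hbl-1. The share called was 60%, beside 45.7% over all features. Next to hbl-1 the lowest were lin-41 at -1.37 ± 0.30, lin-46 at -1.33 ± 0.41 and dcr-1, which encodes Dicer, at -1.24 ± 0.58 (SD, n = 4). Of 30 nucleolar assembly genes set beside puf-12, 20 were tested, 11 were lower and 1 was higher, with a median of -0.58. Here too 60% were called, beside 45.7% over all features. The higher one was the snoRNP gene nol-56 at 0.78, a call lost with ribosomal protein centring (0.37, limma adjusted p = 0.356) or chemoreceptor centring (0.45, limma adjusted p = 0.139) and without preparation 2, 3 or 4. Of the others, fib-1, which encodes fibrillarin, was at 0.30 ± 0.78 and ncl-1 at -0.12 ± 0.77 (SD, n = 4), neither called. The lowest were lpd-7 at -1.92 ± 0.21 (SD, n = 4) and nst-1, a nucleostemin gene, at -1.66 ± 0.37 (SD, n = 3). Somatic markers had 6 higher and 3 lower of 19 tested, a share of 47.4%, near the 45.7% over all features. Over the 10 lists, 104 of 169 distinct genes tested were called (33 higher and 71 lower), or 61.5%, beside 45.7% over all features. The lists include sperm and oocyte markers, picked for their sex-biased expression.

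**Figure D3:**
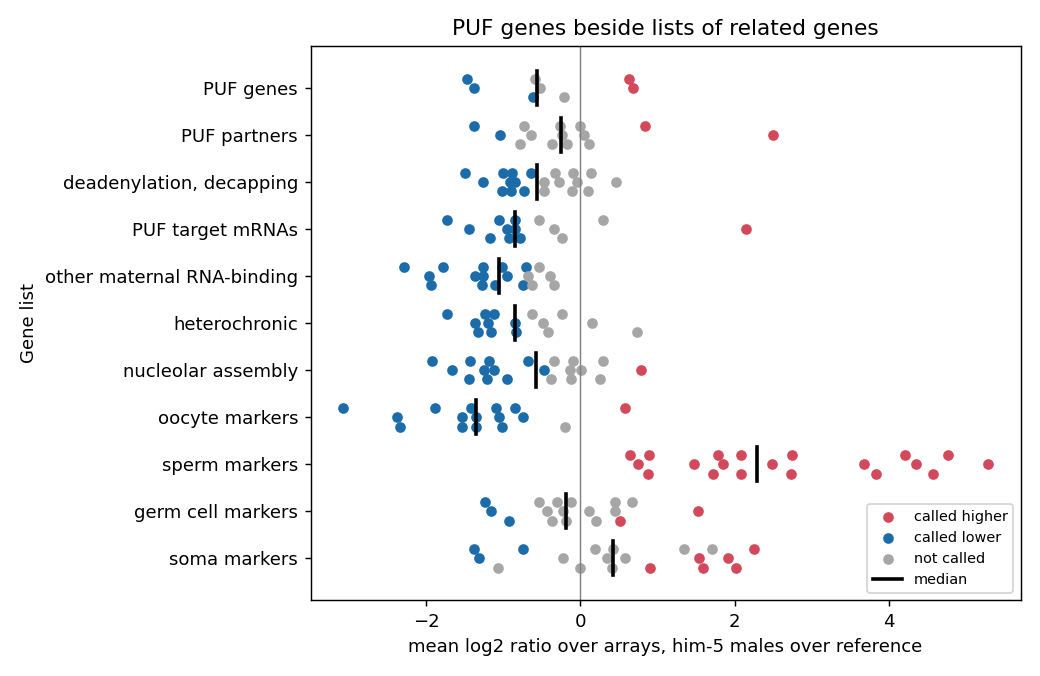
Mean log2 ratio of him-5 males over the reference (horizontal axis) for the PUF genes and for each gene of 10 related lists (vertical axis); colours give the limma call at an adjusted p under 0.05, and black bars the medians. The PUF genes span -1.46 to 0.68. Their median of -0.56 is close to those of the deadenylation and decapping genes (-0.56) and of the nucleolar assembly genes (-0.58).

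The members lie apart in the genome. Of their 18 nearest measured neighbours in the gene order of assembly WBcel235, 7 were called higher, 5 lower and 6 were not called, beside 22.1% higher and 23.6% lower over all features. Of the higher neighbours, ops-1, dzpr-1, Y67D8B.2, snpc-3.1 and lact-2 were no longer called with ribosomal protein centring. Beside puf-5 both neighbours were lower, F54C9.7 at -1.17 ± 0.50 and F54C9.9 at -1.33 ± 0.49 (SD, n = 4). On both of these preparation 2 had the lowest value (-1.73 and -1.91), where puf-5 had its highest. Beside puf-6 and puf-7 lay the higher genes F42G4.2 at 2.26 ± 0.69 and B0273.1 at 2.79 ± 0.57 (SD, n = 4), opposite in sign to these members. Beside puf-12, lact-2 was higher at 1.25 ± 0.53 (SD, n = 4; not called with ribosomal protein centring, 0.83, limma adjusted p = 0.0953) and ZK945.4 was not called at -0.39.

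Over the 4 arrays, the gene closest to puf-4 by Euclidean distance was the alpha tubulin gene tba-5 (distance 0.131), and that closest to puf-12 was the chemoreceptor gene srbc-70 (0.117). Closest to puf-8 was parg-2, a poly(ADP-ribose) glycohydrolase gene (0.0898), and closest to puf-9 was elp-1, a gene for an EMAP-like microtubule protein (0.118). The gene closest to puf-6 was C26B9.2 (0.169), to puf-7 C03C10.5 (0.181) and to puf-3/puf-11 W05F2.3 (0.426). Within the family, puf-6 was the 2nd closest gene to puf-7, puf-7 the 9th closest to puf-6, puf-12 the 23rd closest to puf-4 and puf-4 the 21st closest to puf-12, whereas the member nearest to puf-8 ranked 3962nd and that nearest to puf-9 ranked 3639th. With 4 arrays these distances describe the arrays alone.

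**Figure D4:**
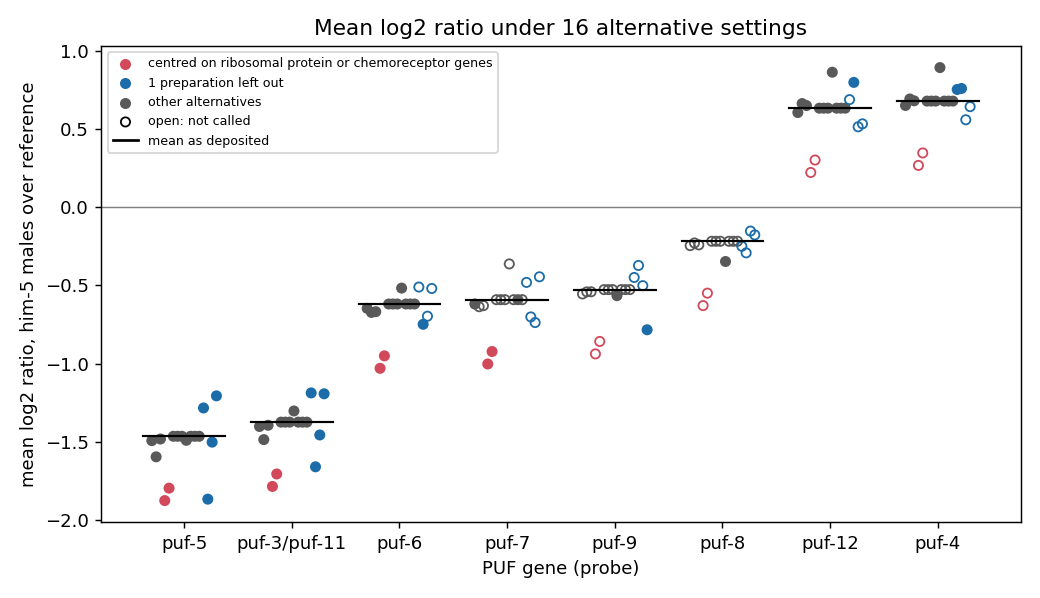
Mean log2 ratio of him-5 males over the reference (vertical axis) for each PUF feature (horizontal axis) under 16 alternative settings; filled symbols are called by limma and open ones are not, and the black line is the mean of the values as deposited. puf-5 and puf-3/puf-11 are called under all 16, and no mean of any feature changes sign.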

How the data were processed

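The authors deposited log2 ratios of the 2 channels with array medians from -0.01 to 0.07, used as they stand; the scaling, image analysis and spot filters behind them are not given in the sources used here. The base was read from the values: 100% of ratios below 3 were whole multiples of 0.001 (within 0.01 of a step) in base 2, against at most 2.6% in other bases. Per array, 19424 to 19761 of 20000 probes had a value. The number of arrays limits the precision.

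Probes were named from the platform annotation through gene identifiers (assembly WBcel235, names and gene order only) and averaged per gene. Tests on features with values on at least 3 arrays used limma 3.58.1 under R 4.3.3 (intercept, eBayes, two-sided, Benjamini-Hochberg over 19214 features). With 4 arrays an exact sign-flip test cannot go below 0.125. The steps were tested on simulated data. Members, lists and tests were chosen with earlier results of these data known. Named genes were all members, fbf-2, up to 6 called genes per list with the largest ratios, 11 preset genes, nearest genes and neighbours; lst-1, sygl-1, ccf-1 and nol-56 were chosen after their values were seen. Lists covered partners, deadenylation and decapping, targets, other RNA-binding proteins, heterochronic and nucleolar genes, and oocyte, sperm, germ cell and somatic markers. Alternatives were other scalings, other numbers of arrays required, array weights, robust moderation, single probes, the dated pair as block or covariate, a stricter threshold, and each preparation left out. Sequences and fbf-1 were not analysed here.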

Additional observations from a re-analysis of the deposited data

Results flagged for a closer look

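Of 108 sets of 4 arrays checked, 10 had 1 array far from the other 3 (gap over range above Dixon's critical value), where chance gives about 1 in 20, and none of the 10 was a PUF gene. On preparation 2 there were 7: cpb-1 at 0.12, panl-3 at -1.79, nhl-2 at -2.09, mes-6 at -1.46, the puf-4 neighbours Y67D8B.2 at 1.53 and slmp-1 at -0.44, and the median of the nucleolar genes at -1.10. On preparation 3 there were 2, chs-1 at -1.31 and hop-1 at 3.84. On preparation 4 there was 1, ssp-19 at 2.14.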

How the results depend on the processing

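The number of PUF features called was 5 as deposited and 4 to 7 under the other scalings, missing-value limits, moderation, array weights, single probes and the dated pair as block or covariate. It was 2 at an adjusted p under 0.01 by limma (puf-5 and puf-3/puf-11), and 2 to 5 when 1 preparation was left out: 3 without preparation 1, 2 without preparation 3 and 3 without preparation 4. No member changed sign under any of its 16 alternatives. Of the 128 values, 109 kept their side of the threshold, 12 lost a call (puf-4, puf-6 and puf-12) and 7 gained one (puf-7, puf-8 and puf-9). The cause of these losses was not tested. Leaving out 1 preparation changes the number of arrays and the arrays that remain together, so these cannot be told apart. For puf-7 the dated pair as a random block gave an adjusted p = 0.0258 by limma, with a negative estimated correlation within a pair (-0.22). The genes called in the 10 lists numbered 73 to 129 against 104. Of 10 list medians, 12 of 160 values moved beyond the spread between arrays, all towards lower values under ribosomal protein or chemoreceptor centring. Over all features 48.3% of calls were higher, against 25.8% and 26.7% under these 2 centrings, which subtracted 1.10 and 0.76 from preparation 2. No paired analysis was possible because there is 1 group. Spot intensities were not used here, so faint spots could not be judged.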
